A study of Mus musculus with 6 samples.

Results

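Forkhead transcription factors were followed as a family in RNA-Seq of the embryonic mouse rib cage, in which 2 of them, Foxc1 and Foxc2, had been deleted. A list of 39 forkhead genes was matched by symbol to the 55487 genes of the deposited count table, and each of the 39 matched 1 gene. The comparison asks which members are expressed beside the deleted pair, and whether any other member is higher or lower when both are lost. Each of the 6 libraries came from 1 embryo at 16.5 dpc. Embryos E423, E433 and E440 carry the genotype label Col2-cre;Foxc1-/-;Foxc2-/- (mutants), and embryos E420, E434 and E435 the label wild type (controls). By the study's methods, sires with Col2-cre and 1 deleted copy of each gene were crossed to dams with floxed copies of both, on a mixed C57B6 and Black Swiss background. A control from this cross therefore also inherited floxed alleles, and its full genotype is not given in the sources used here. The study describes the controls of its skeletal preparations as lacking Col2-cre, and does not state this for the sequenced controls. Where controls lack it, presence of the transgene cannot be told apart from loss of the 2 genes. In the study's reporter embryos Col2-cre was active in hind limb chondrocytes, in perichondrium and in the primary ossification center. The study also cites its activity in the sclerotome. Cells of a mutant rib cage whose lineage never had this activity keep at least 1 undeleted copy of each gene. Littermates were compared, but which embryos shared a litter is not given.

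Forkhead proteins bind DNA through a conserved winged-helix domain and are grouped into subfamilies, FoxA to FoxS, by the sequence of that domain. In skeletal tissue FOXC1 and FOXC2 act in the mesenchyme and perichondrium that form cartilage, FOXA2 and FOXA3 act in hypertrophic chondrocytes, FOXP1, FOXP2 and FOXP4 act in perichondrial and osteoblast lineage cells, and FOXO proteins act in osteoblasts and chondrocytes under insulin and growth factor signals. RNA of the whole rib cage was sequenced, and in such bulk RNA fewer cells of a type cannot be told apart from less RNA per cell.

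Libraries held between 37853988 and 47794799 counts, and 1 count equals between 0.0206 and 0.0254 CPM (counts scaled to the size of the library). All 14 early chondrocyte markers and all 10 osteoblast and osteocyte markers were detected in both groups. The libraries did not stand equally far apart. Over genes with at least 200 counts in a pair, the SD of the log2 ratio was 0.156 between controls E420 and E435 and 0.135 between mutants E423 and E440, against 0.493 to 1.58 for the other 13 pairs. Chi-square per gene on fragment counts came to 5.90 and 2.30 in these close pairs, where sampling noise alone gives 1. The 6 libraries were treated as 6 samples because their labels carry separate numbers, and the chi-square values do not tell separate embryos from repeat libraries of one RNA. Control E434 and mutant E433 stood apart from the rest of their groups in tissue markers. The summed early chondrocyte markers were at 27953 CPM in E434 and 10379 CPM in E433, against 2043 and 2147 CPM in the other controls and 720.4 and 744.0 CPM in the other mutants. Summed keratinocyte markers were at 18.9 CPM in E434 and 3368 CPM in E433, against 5732 and 6573 CPM in the other controls and 28499 and 28614 CPM in the other mutants. Summed hepatocyte markers reached 794.7 CPM in E433 and lay between 58.8 and 90.1 CPM elsewhere. Results are therefore also given without E434 and E433. That leaves the close pairs, in which the spread within a group is small, so p-values from those 4 libraries are much lower. Values of single libraries are listed below in the order E420, E434, E435 for controls and E423, E433, E440 for mutants.

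Foxc1 and Foxc2 are close relatives within the winged-helix domain, which matters for a count that must tell a deleted gene from its relatives. The stretch of coding sequence below lies inside that domain in both genes. It was read from the GENCODE transcripts of GRCm38, at chr13:31807589-31807738 for Foxc1 and at chr8:121116975-121117124 for Foxc2, both on the plus strand, and capitals mark the bases at which the genes differ.
Foxc1: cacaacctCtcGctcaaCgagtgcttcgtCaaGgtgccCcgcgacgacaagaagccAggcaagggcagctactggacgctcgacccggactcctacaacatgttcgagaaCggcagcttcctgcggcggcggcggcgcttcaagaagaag
Foxc2: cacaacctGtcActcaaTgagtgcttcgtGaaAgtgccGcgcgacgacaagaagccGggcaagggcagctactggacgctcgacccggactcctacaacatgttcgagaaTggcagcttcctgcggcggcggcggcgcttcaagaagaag
Of these 150 bases 142 are identical, and all 8 differences fall on the last base of a codon. The whole aligned stretch has 347 bases, of which 312 (89.9%) are identical, with a longest identical run of 53 bases. Among the other 37 members, the highest identity to the Foxc1 stretch was that of Foxl1, at 82.7% over 266 aligned bases, followed by Foxd3 at 78.6% and Foxs1 at 78.4%. Reads were 42 bases long, and only 12 of the 5803 words of 42 bases in Foxc1 transcripts (0.207%) and 12 of the 2684 in Foxc2 transcripts (0.447%) occur in the other gene. No word of Foxl1 occurs in another forkhead gene. The highest share was 1.45%, for Foxd3 with Foxd2 and Foxd4, so few reads could be shared between relatives.

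For levels compared between genes, counts were divided by exon length, as RPKM (CPM divided by the kb of exon in the gene, after TMM scaling). On this per-length scale 16 of the 39 members had a mean of at least 1 over the 6 libraries, and 3 (Foxb1, Foxi2 and Foxl2) had 0 counts in every library, which allows up to 0.0618 to 0.0763 CPM depending on the library (3 counts, counting error only). Members of the FoxO, FoxK, FoxN, FoxP, FoxM and FoxJ subfamilies filled the 11 highest ranks. Foxo4, a growth factor-controlled factor of the FoxO subfamily, had the highest mean level, at 33.1 RPKM and 23.8% of the summed level of all members. It was followed by Foxk2 at 16.6 and Foxo3 at 14.0 RPKM. Foxk1 at 9.35, Foxn3 at 8.49, Foxp4 at 8.44 and Foxm1 at 8.37 came next, and the ranges of these 4 genes over the libraries overlapped, so that their order is not resolved. Summed over all members, the level was 145.9 ± 13.4 RPKM in controls and 131.7 ± 8.51 in mutants (SD, n = 3 each), and the groups overlapped.

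**Figure D1:**
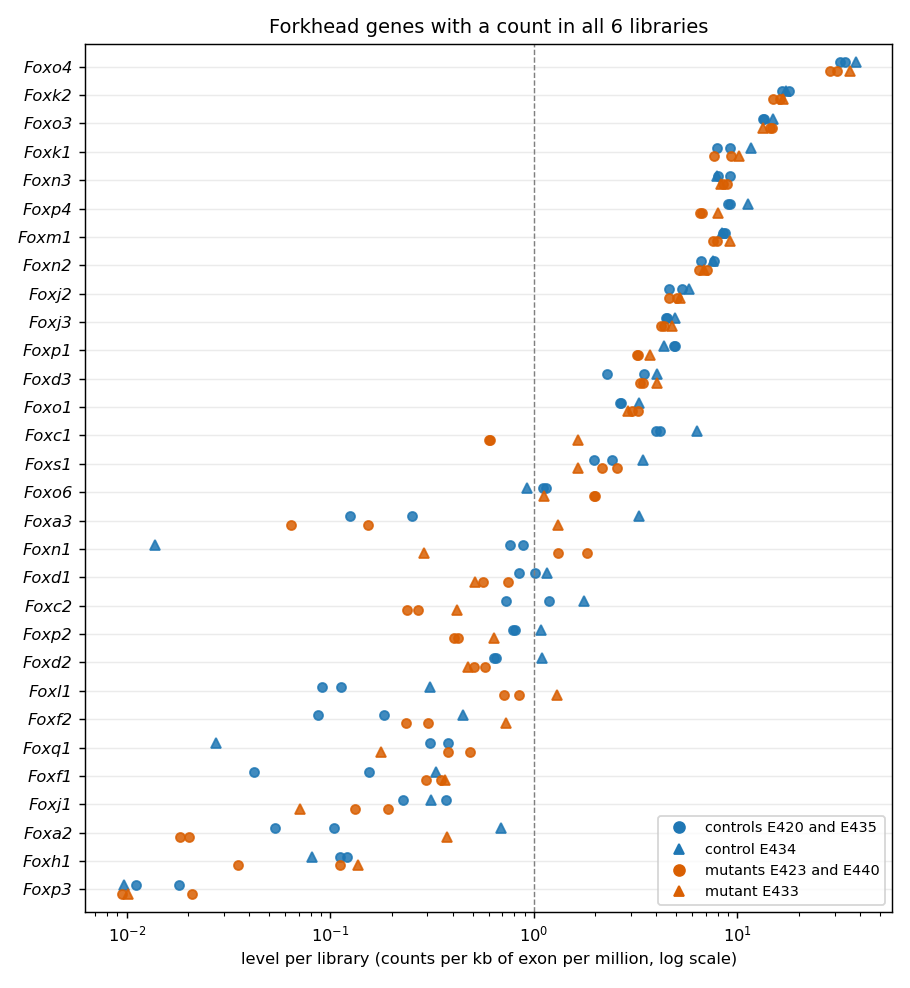
Level of each of the 30 forkhead genes with a count in all 6 libraries, in RPKM on a log axis, 1 point per library. Blue marks controls and orange marks mutants, triangles mark E434 and E433, and the dashed line marks a level of 1. Most highly expressed members have overlapping groups. Foxc1, Foxc2 and Foxl1 are among the 9 members whose groups lie apart, and of these only Foxl1 is higher in mutants.

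The deleted genes moved down the order while Foxl1 moved up. In controls Foxc1 ranked 10 of 39 by level per length, Foxc2 ranked 16 and Foxl1 ranked 28. In mutants Foxc1 ranked 18, Foxc2 ranked 26 and Foxl1 ranked 17. The mean Foxl1 level in mutants, 0.955 ± 0.310 RPKM, was close to that of Foxc1 itself, 0.951 ± 0.60 (SD, n = 3), and their spreads overlapped.

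Differences between groups were tested with edgeR's quasi-likelihood test over 26596 genes with at least 10 counts in all, of which 31 were members, and p-values were adjusted over all of these genes. To be called, a gene had to reach a log2 fold change of 1 in either direction with an adjusted p-value below 0.1. By edgeR 0 members were called lower and 0 higher, in a background of 0.0301% of genes lower and 0.0338% higher. At an unadjusted p under 0.05, 7 members were lower (background 4.70%) and 2 were higher (background 5.90%). DESeq2's Wald test gave an adjusted p for 27 members, and past both limits it called Foxc1 and Foxc2 lower (background 0.557%) and Foxl1 higher (background 1.62%). With no limit on the fold it called 6 members lower (background 1.73%) and 1 higher (background 2.61%), the additional ones being Foxd1, Foxp1, Foxp2 and Foxp4. Without any test, all 3 mutants lay below all 3 controls in CPM for 8 of the 31 members (25.8%, against 8.21% of all genes tested) and above them for 1 member (3.23%, against 6.81%). Foxc1 and Foxc2, whose fall was set by the deletion, are among these 8, and among the 7 and the 6 lower members above. Part of the excess over the background is therefore given by the design. The RSEM expected counts gave a fold for 30 of these members, in the same direction for all 30 and within 0.20 on the log2 scale.

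**Figure D2:**
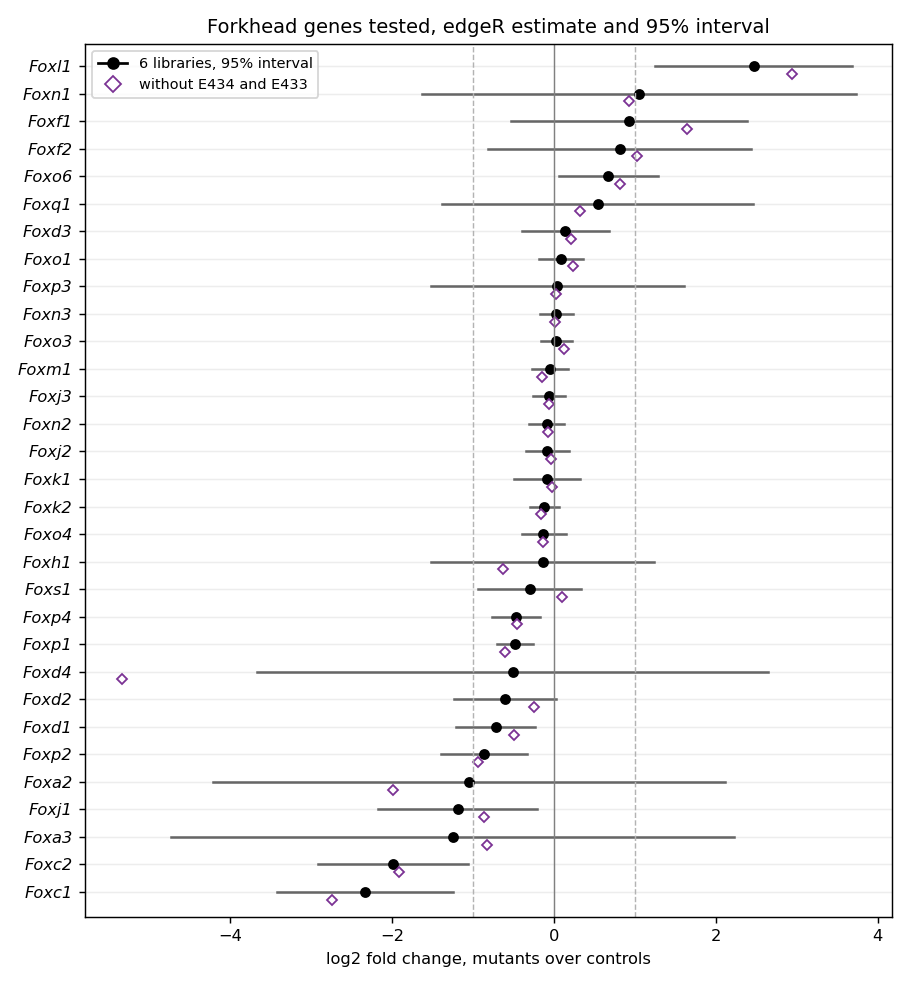
The log2 fold change of mutants over controls for the 31 forkhead genes tested, with the edgeR estimate from all 6 libraries (black point) and its 95% interval (line), and the estimate without E434 and E433 (open diamond). Dashed lines mark the fold limit of 1 either way. Intervals that reach neither line include those of highly expressed genes such as Foxo3 and Foxk2, and those of Foxd3 and Foxs1 at lower levels. The widest belong to Foxa2, Foxa3 and Foxd4.

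Foxc1 (ENSMUSG00000050295.4, chr13:31806633-31812476, GRCm38) was lower in every mutant. Its counts were 909, 1674 and 1175 in controls against 148, 414 and 162 in mutants, with no overlap between the groups. As a share of the control mean, E423 held 12.7%, E440 12.5% and E433 34.2%. The log2 fold change was -2.34 (standard error 0.452, 95% interval -3.42 to -1.25, edgeR adjusted p = 0.235, DESeq2 adjusted p = 9.63e-07).

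Foxc2 (ENSMUSG00000046714.7, chr8:121116171-121118895) was lower in every mutant too, from a control level per length of 1.23 ± 0.524 RPKM, against 4.81 ± 1.31 RPKM for Foxc1 (SD, n = 3). It had 78, 219 and 156 counts in controls and 27, 49 and 34 in mutants, and the groups did not overlap. The mutants held 19.4%, 34.0% and 22% of the control mean. The log2 fold change was -1.99 (standard error 0.388, 95% interval -2.92 to -1.06, edgeR adjusted p = 0.239, DESeq2 adjusted p = 0.000207). For both genes E433 was the mutant with the most remaining RNA. Without E434 and E433 the log2 fold changes were -2.74 for Foxc1 and -1.91 for Foxc2. Counts were taken over all exons of a gene, so they do not tell RNA of an intact allele from RNA of exons that remain on a recombined one.

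The relation between the pair was compared through the ratio of Foxc1 to Foxc2 per length. It was 5.43, 3.56 and 3.51 in the controls and 2.56, 3.94 and 2.22 in the mutants, with overlapping groups. The mean log2 ratio was 2.03 ± 0.36 in controls and 1.49 ± 0.43 in mutants (SD, n = 3 each), and the difference of -0.53 was not beyond the spread (exact permutation test, 2-sided, p = 0.3, where 3 against 3 can reach no less than 0.1).

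Foxl1 (ENSMUSG00000097084.1, chr8:121127940-121130644), a factor known from the mesenchyme beneath gut epithelium, was the member that was higher in all mutants. Its counts were 12, 38 and 12 in controls against 80, 152 and 106 in mutants. The lowest mutant thus lay above the highest control, and within each group the library with the most early chondrocyte RNA was the highest. On the CPM scale the group means were 0.464 ± 0.326 and 2.58 ± 0.838 (SD, n = 3 each), a log2 fold change of 2.47 (standard error 0.506, 95% interval 1.25 to 3.68, edgeR adjusted p = 0.263, DESeq2 adjusted p = 0.000157). On the log2 scale the difference was 2.07 for E433 over E434 and 2.93 for E423 and E440 over E420 and E435. E433 and E434 are single libraries that were unlike each other (SD of the log2 ratio 0.898), so they are not a matched pair. Foxl1 starts 9.04 kb beyond the end of Foxc2 on the same chromosome, and Foxf1 ends 28.0 kb before Foxc2.

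The genes around both loci were listed to set Foxl1 among its neighbours. Of the 8 genes listed around Foxc2, 0 were called by edgeR and 1, Foxl1, by DESeq2, which was also the 1 with an unadjusted p under 0.05, and their median log2 fold change was 0.04 against 0.01 over all genes tested. Mthfsd, another gene of that list, had a log2 difference of 0.04 (standard error 0.0986). The listed genes other than forkheads lay between -1.03 for the noncoding RNA Fendrr, at 1 to 8 counts per library, and 0.36 for Fbxo31. Around Foxc1, 6 of 7 listed genes matched, 5 were tested, 0 were called by either tool, 0 had an unadjusted p under 0.05, and Gmds had a log2 difference of 0.09 (standard error 0.188). The forkhead genes Foxf2 (175 kb before Foxc1) and Foxq1 (64.8 kb before Foxf2) had log2 fold changes of 0.81 (standard error 0.679) and 0.54 (standard error 0.803), both within the spread of the embryos.

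Foxl1, Foxf1 and Foxf2 are known readouts of hedgehog signalling in gut mesenchyme, so general hedgehog readouts were set beside them, and no count or median over them is given. Hhip, which encodes an antagonist and is named after its values were seen, had 21.7, 37.6 and 21.6 CPM in controls against 12.2, 15 and 12 CPM in mutants. The groups did not overlap, and its log2 fold change was -1.04 (standard error 0.245, edgeR adjusted p = 0.33, DESeq2 adjusted p = 0.00352), past the limits with DESeq2 and not with edgeR. The transcription factor gene Gli1 had a log2 difference of 0.09 (standard error 0.0979), and the receptor gene Ptch1 one of 0.25 (standard error 0.202). Foxf1 had 4, 36 and 18 counts in controls and 35, 38 and 33 in mutants, so control E434 lay within the mutant range, and the log2 fold change of 0.93 had a standard error of 0.607. Without E434 it was 1.73. Foxf2 was highest in E433, at 74 counts against 10 to 48 in the other libraries, and without E433 its log2 fold change was 0.17.

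Of the 4 FoxP genes, Foxp1, Foxp2 and Foxp4 were lower in every mutant than in every control. Foxp1 had 67.5, 59.9 and 67.4 CPM in controls against 44.5, 50.9 and 44.3 CPM in mutants. The groups did not overlap, and the log2 fold change was -0.48 (standard error 0.092, edgeR adjusted p = 0.235, DESeq2 adjusted p = 0.00397). Foxp2 had 13.3, 17.6 and 12.9 CPM in controls against 6.64, 10.4 and 6.91 CPM in mutants, again with no overlap. Its log2 fold change was -0.87 (standard error 0.224, edgeR adjusted p = 0.361, DESeq2 adjusted p = 0.0158). Foxp4 had 45.5, 54.9 and 44.3 CPM in controls against 32.9, 39.4 and 32.3 CPM in mutants, with no overlap and a log2 fold change of -0.47 (standard error 0.124, edgeR adjusted p = 0.366, DESeq2 adjusted p = 0.0702). The 3 genes were thus at 71.7%, 54.8% and 72.3% of control, short of the fold limit, and for each gene E433 was the highest mutant. Without E434 and E433 the log2 fold changes were -0.60, -0.94 and -0.46.

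Markers of the cells in which FOXP proteins act in bone were measured beside them. The summed osteoblast and osteocyte markers were at 10024 to 15178 CPM in controls and 7245 to 7850 CPM in mutants. Of the 10 genes 8 were called lower by DESeq2 at any fold (background 1.73%). Endothelial markers were at 473.5 to 611.8 CPM in controls and 451.0 to 565.3 CPM in mutants, with 0 of 8 called by either tool and 1 lower at an unadjusted p under 0.05. The part of osteoblast content in the Foxp1, Foxp2 and Foxp4 differences was not tested. Foxp3, the factor of regulatory T cells, had 2 to 4 counts in every library, and 31.5% of its exon bases are shared with overlapping genes. T cell markers summed to 5.69 to 9.52 CPM in controls and 7.17 to 14.8 CPM in mutants, and a difference in Foxp3 was not detectable at this depth.

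**Figure D3:**
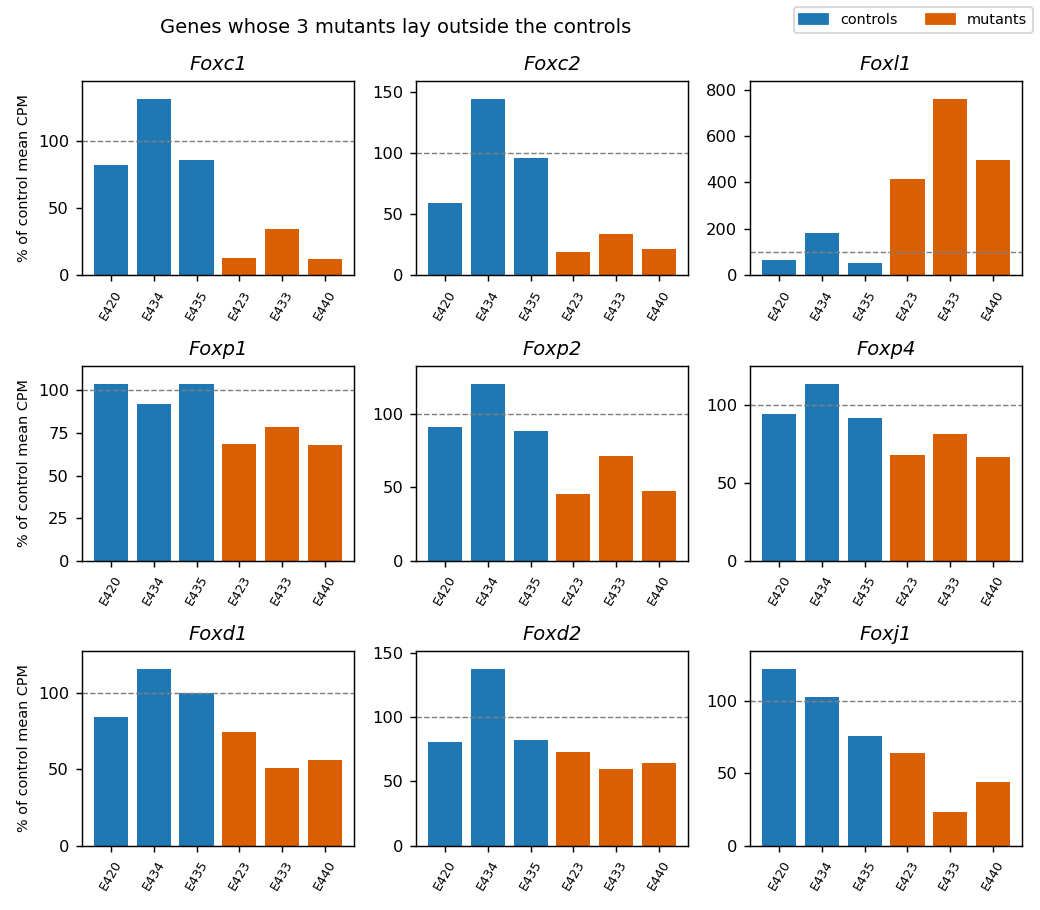
CPM of the 9 forkhead genes whose groups did not overlap, as a percent of the gene's control mean (dashed line at 100), 1 bar per embryo, controls in blue and mutants in orange. Vertical axes start at 0 and differ between panels. Foxc1 and Foxc2 are at 34.2% or less in every mutant, the FoxP genes between 45.5% and 81.7%, and Foxl1 between 415.0% and 760.5%.

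Among members at lower levels, Foxd1, Foxd2 and Foxj1 also had every mutant below every control. Foxd1, a factor of stromal progenitors in kidney and other mesenchyme, had 4.30, 5.89 and 5.09 CPM in controls against 3.8, 2.60 and 2.86 CPM in mutants. Its log2 fold change was -0.72 (standard error 0.205, edgeR adjusted p = 0.381, DESeq2 adjusted p = 0.0703), and the gap between the lowest control and the highest mutant was small. Foxd2 had 65, 128 and 82 counts in controls and 62, 53 and 61 in mutants, and its log2 fold change of -0.61 (standard error 0.261) became -0.31 without E434. Foxd3, a neural crest factor, had 209, 426 and 393 counts in controls and 332, 405 and 356 in mutants, with overlapping groups and a log2 fold change of 0.14 (standard error 0.225). Schwann cell markers, of the neural crest lineage, summed to 114.3 to 123.1 CPM in controls and 138.7 to 145.5 CPM in mutants. Foxd4 had at most 8 counts in a library and 0 in E423 and E440, too few to compare.

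Foxj1, the factor that turns on genes of motile cilia, had 38, 37 and 29 counts in controls and 21, 8 and 16 in mutants. The groups did not overlap, and the log2 fold change was -1.19 (standard error 0.409, edgeR adjusted p = 0.421, DESeq2 adjusted p = 0.248), short of the limit with either tool. The 15 motile cilium genes listed had a median log2 fold change of 0.06, with 0 called by edgeR and 1, Dnaic1, called higher by DESeq2 and at an unadjusted p under 0.05 (named after its value was seen). The 3 with the highest mean CPM in that list were Rfx3, Rfx2 and Dnaic1, and the cilium regulators Rfx3 and Rfx2 had log2 fold changes of -0.12 (standard error 0.197) and 0.13 (standard error 0.155). Foxj2 and Foxj3, which share the subfamily name with Foxj1 but not its ciliary role, differed by -0.09 (standard error 0.110) and -0.06 (standard error 0.0843).

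The FoxO genes, whose proteins leave the nucleus when AKT or SGK kinases phosphorylate them, supplied the largest part of the family's RNA. Summed over the subfamily, the level was 48.8 to 57.2 RPKM in controls and 47.8 to 53.1 in mutants, with overlapping groups. Foxo4 had 117.7, 132.7 and 110.6 CPM in controls against 107.6, 124.4 and 98.9 CPM in mutants, a log2 fold change of -0.13 (95% interval -0.40 to 0.15). Foxo3 had a log2 fold change of 0.03 (95% interval -0.16 to 0.22), and Foxo1 had one of 0.09 (95% interval -0.19 to 0.36). Changes as large as 2-fold thus lie outside the intervals of these 3 genes. Foxo6, best known from brain, was at 3.0, 2.43 and 2.91 CPM in controls against 5.19, 2.92 and 5.16 CPM in mutants. Mutant E433 lay among the controls for Foxo6, and the log2 fold change of 0.67 (standard error 0.253) did not pass (edgeR adjusted p = 0.443, DESeq2 adjusted p = 0.216).

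Kinases and regulators of FoxO proteins were measured with the FoxO genes. Of 14 such genes 0 were called by edgeR or DESeq2 and 2 were lower at an unadjusted p under 0.05 (background 4.70%). The median log2 fold change was 0.01, as over all genes. The 3 with the highest mean CPM were Ywhaz, a 14-3-3 protein that holds FoxO in the cytoplasm, Akt1 and Akt2, with log2 fold changes of -0.01 (standard error 0.104), -0.09 (standard error 0.0881) and 0.10 (standard error 0.0711). Of 20 listed FoxO targets 19 were tested, and 0 were called by edgeR. At an unadjusted p under 0.05, 1 was lower (background 4.70%) and 5 were higher (background 5.90%). By DESeq2 at any fold 0 were called lower (background 1.73%) and 3 higher (background 2.61%). The median log2 fold change of the 19 was 0.20 against 0.01 over all genes, with 6 below and 13 above 0. Txnip, Sod2 and Sesn3 had the highest mean CPM of the list, and their log2 fold changes were 0.02, 0.49 and -0.26. The 3 targets called by DESeq2 were Gadd45a, a growth arrest gene, Trim63, a muscle ubiquitin ligase, and Pck1, an enzyme of liver and fat (named after their values were seen). Pck1 was at 0 to 0.0441 CPM in controls and at 4.62, 0.278 and 4.81 CPM in mutants. Summed fat markers were at 137.7 to 155.7 CPM in controls and 607.5, 210.3 and 629.0 CPM in the same mutants. All 8 were called higher by DESeq2 at any fold (background 2.61%). Summed skeletal muscle markers were at 11141 to 19447 CPM in controls and 14883 to 26724 CPM in mutants. The part of fat and muscle RNA in Pck1 and Trim63 was not tested.

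Expression of Foxm1, the factor of the mitotic gene programme, was close in the groups. It had 49.9, 48.2 and 48.9 CPM in controls against 45.4, 52.9 and 43.7 CPM in mutants, and controls lay inside the range of the mutants. The log2 fold change was -0.05 (95% interval -0.27 to 0.17). Of 14 listed FoxM1 targets 0 were called by either tool and 0 had an unadjusted p under 0.05. Of these, 12 had a log2 fold change below 0, and the median was -0.06. The targets with the highest mean CPM were Top2a, Cenpf and Cenpa, with log2 fold changes of -0.07 (standard error 0.144), 0.02 (standard error 0.20) and -0.07 (standard error 0.0967). In this list too E433 was the highest library, at a summed 1004 CPM, while controls ranged from 879.9 to 899.8 CPM and mutants E423 and E440 stood at 781.5 and 781.8 CPM.

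Members of the FoxK and FoxN subfamilies with broad expression were close in the groups as well. Foxk1 and Foxk2, factors of metabolic genes, had log2 fold changes of -0.09 (95% interval -0.50 to 0.32) and -0.12 (95% interval -0.30 to 0.06). Foxn2 and Foxn3 had log2 fold changes of -0.09 (95% interval -0.31 to 0.12) and 0.03 (95% interval -0.17 to 0.23). Together with Foxj2, Foxj3, Foxm1 and 3 FoxO genes these made 10 members whose estimate lay within 0.2 of 0 on the log2 scale with a standard error under 0.2, and their intervals lay between -0.50 and 0.36. Foxd3, Foxh1 and Foxp3 had estimates as close to 0 (0.14, -0.14 and 0.04) but larger standard errors (0.225, 0.576 and 0.652). Foxs1, a gene of pericytes and vascular smooth muscle, had 125, 205 and 126 counts in controls and 139, 93 and 131 in mutants. The groups overlapped, and its log2 fold change of -0.30 (standard error 0.266) was 0.10 without E434 and E433. Pericyte and smooth muscle markers summed to 753.6 to 990.8 CPM in controls and 735.3 to 886.4 CPM in mutants, and both this list and Foxs1 were highest in E434.

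Foxa2, Foxa3, Foxn1 and Foxq1 varied widely between the libraries of a group, with E434 and E433 apart from the rest. Foxa3 had 10, 303 and 25 counts in controls and 13, 116 and 6 in mutants. Foxa2 had 5, 74 and 12 counts in the controls and 2, 38 and 2 in the mutants. Both genes, which promote chondrocyte hypertrophy and also mark endoderm, were thus high in E434 and E433, the libraries with the most early chondrocyte marker RNA. Hypertrophic chondrocyte markers summed to 2043 CPM in E434 and to the lowest value of all, 567.0 CPM, in E433, against 1522 and 1581 CPM in the other controls and 925.2 and 908.8 CPM in the other mutants. The low sum in E433 came from Ibsp, Mmp13 and Alpl, which osteoblasts also express. Col10a1, the collagen of hypertrophic cartilage, was highest in E434 at 559.2 CPM and next highest in E433 at 126.0 CPM, against 73.6 to 114.1 CPM elsewhere. Ihh, the hedgehog ligand of prehypertrophic chondrocytes, had the same order, at 25.3 CPM in E434 and 6.29 CPM in E433 against 1.15 to 3.19 CPM elsewhere. The rest of the list did not share this order. Panx3 was highest in E434 at 65.9 CPM but lowest in E433 at 24.2 CPM. Pth1r was highest in E434 at 139.1 CPM, and in E433, at 87.3 CPM, it lay below every control. Vegfa was highest in E433 at 53.7 CPM. The hepatocyte list, high in E433 alone, reached 90.1 CPM in E434. Log2 fold changes were -1.25 for Foxa3 and -1.05 for Foxa2, with standard errors of 1.45 and 1.32, and each turned positive without E434, to 1.41 and 0.76. In E433 over E434 the log2 ratios were -1.31 and -0.89. The part of cartilage or liver RNA in these values was not tested.

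Foxn1 and Foxq1 had the opposite pattern. Foxn1, a factor of hair and skin keratinocytes and of thymic epithelium, had 112, 2 and 119 counts in the controls and 245, 40 and 195 in the mutants. Foxq1, a hair shaft factor, had 59, 6 and 89 counts in the controls and 76, 37 and 108 in the mutants. Both were lowest in E434 and next lowest in E433, as the keratinocyte markers were, whereas thymic epithelium markers summed to 9.59 to 9.88 CPM in controls and 7.19 to 12 CPM in mutants. The summed lung epithelium list was also lowest in E434, at 3.57 CPM, and next lowest in E433, at 36.6 CPM, against 86.1 to 125.2 CPM in the other libraries, but Cdh1 and Epcam, which skin epithelium also expresses, made up nearly all of it outside E434. The surfactant gene Sftpc, particular to lung, went the other way, with 46 counts in E434, 14 in E433 and 0 to 10 elsewhere. Scgb1a1 of the same list followed the order of the sum, with 0 counts in E434, 7 in E433 and 8 to 16 elsewhere. Nkx2-1, Sftpb and Cldn18 had at most 5 counts in a library. The log2 fold changes of 1.05 for Foxn1 and 0.54 for Foxq1 had standard errors of 1.12 and 0.803 and did not pass. The part of skin or lung RNA in them was not tested. Foxq1 shares 66.1% of its exon bases with the opposite-strand gene A530084C06Rik, which had 0 counts in every library. A read that overlaps both genes is counted for neither by this pipeline, so Foxq1 counts came from the rest of the gene.

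**Figure D4:**
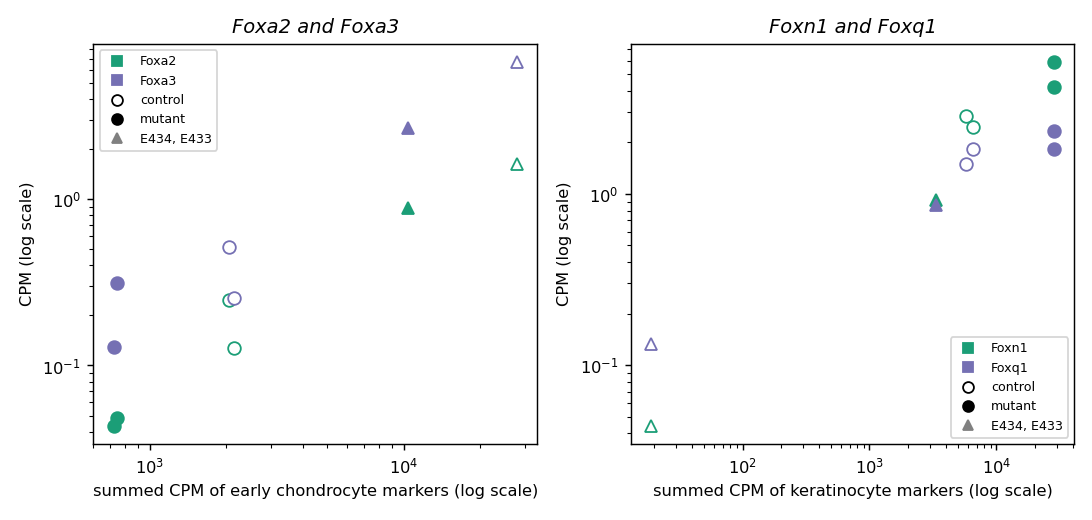
CPM of Foxa2 and Foxa3 against the summed CPM of early chondrocyte markers (left) and of Foxn1 and Foxq1 against the summed CPM of keratinocyte markers (right), both axes on log scales. Each point is 1 library, open for controls and filled for mutants, and triangles mark E434 and E433. Foxa2 and Foxa3 are high at 10379 and 27953 CPM of chondrocyte markers, and Foxn1 and Foxq1 are lowest at 18.9 CPM of keratinocyte markers.

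The remaining members were scarce. Foxh1, a partner of Nodal signalling, had 2 to 8 counts per library. Besides the 3 genes with no count at all, 5 members (Foxa1, Foxe1, Foxe3, Foxi1 and Foxn4) had fewer than 10 counts in all 6 libraries together and were not tested. These include Foxa1 of endoderm, with 4 counts each in E434 and E433 and 0 elsewhere, and Foxe1 of thyroid and skin, with 2 and 4 counts in E423 and E440 and 0 elsewhere. Differences among such counts were not detectable at this depth.

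A list of 18 genes known to be tied to Foxc1 or Foxc2, in cartilage or in other tissues, was read in the same fit. By edgeR 0 were called. At an unadjusted p under 0.05, 4 were lower (background 4.70%) and 3 higher (background 5.90%). By DESeq2 at any fold 1 was lower (background 1.73%) and 2 were higher (background 2.61%). Of the list 9 lay below and 9 above 0, with a median log2 fold change of -0.05. Cxcl12, a chemokine of perivascular and marrow stromal cells, was the most highly expressed, at 166.7, 158.7 and 161.5 CPM in controls against 81.7, 144.1 and 80.0 CPM in mutants. All mutants lay below all controls, but E433 lay near them, and the log2 fold change of -0.67 (standard error 0.233) did not pass (edgeR adjusted p = 0.425, DESeq2 adjusted p = 0.111). Kitl, the ligand of the Kit receptor, was higher in all mutants, with a log2 fold change of 0.36 (standard error 0.106, edgeR adjusted p = 0.389, DESeq2 adjusted p = 0.0975), and Itgb3, an integrin subunit, was lower in all, with a log2 fold change of -0.40 (standard error 0.136, edgeR adjusted p = 0.419, DESeq2 adjusted p = 0.208). The other 2 that DESeq2 called, named after their values were seen, were Gja4, a connexin of arterial endothelium, at -0.43, and Tbx1 at 0.96.

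**Figure D5:**
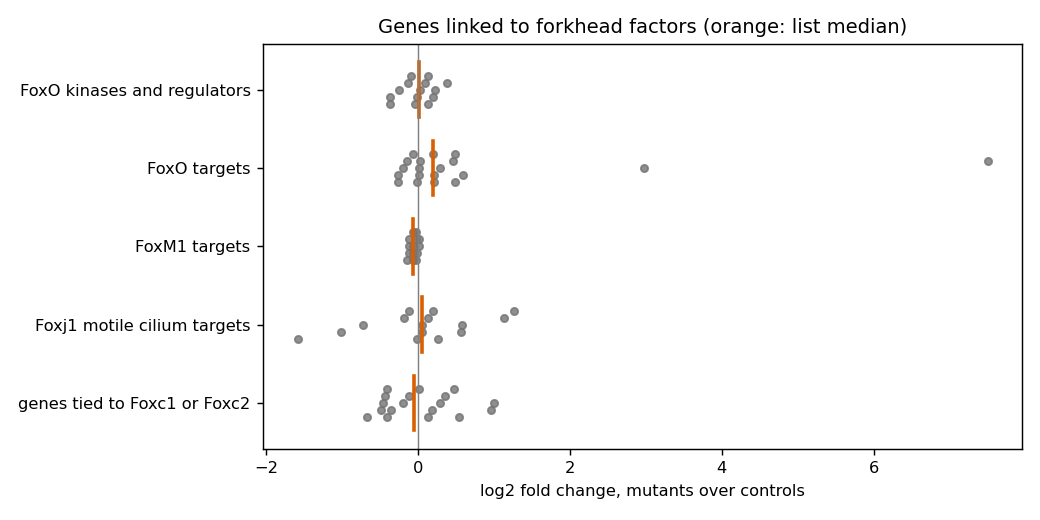
The log2 fold change of mutants over controls for each tested gene of 5 lists linked to forkhead factors (grey points) and the median of each list (orange line). Medians lie between -0.06 and 0.20, against 0.01 over all genes tested. The FoxO target list has the highest median, and the farthest point is Pck1 in that list.

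The 4 libraries without E434 and E433 gave more calls, within a much higher background. There edgeR called 3 of 31 members lower (background 2.59%), namely Foxc1, Foxc2 and Foxd4, and 2 higher (background 5.66%), namely Foxl1 and Foxf1. Foxd4 rests on 3 and 7 counts in the controls and 0 in both mutants. The Foxl1 log2 fold change was then 2.94 with an edgeR adjusted p of 2.38e-07, from close pairs of libraries only.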

How the data were processed

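Rib cages of 6 embryos, 3 per group, were sequenced by the authors from stranded mRNA libraries read as 42-base pairs. The authors aligned reads to GRCm38 with HISAT2 2.1.0 and deposited gene counts from featureCounts 1.6.0 on GENCODE exons, without normalization. Each end was counted singly and without strand, and reads aligning to several places or genes were left out, so overlapping genes lose counts and antisense RNA is not told apart. The authors also deposited expected counts and TPM from STAR 2.7.6 and RSEM 1.2.31. Their own DESeq2 1.26.0 comparison tables (fold changes and p-values), with 12 columns of per-sample values, were not used.

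TMM-scaled counts were compared with glmQLFit and glmQLFTest of edgeR 4.0.16 in R 4.3.3, over genes with at least 10 counts summed, with Benjamini-Hochberg adjustment over all genes and the limits of the study's methods (0.1 on the adjusted p-value, 1 on the log2 fold change). Standard errors and 95% intervals come from this fit. DESeq2 1.42.0 was the other tool, and expected counts were rounded to whole numbers for the same test. Where DESeq2 gave no adjusted p, for 4 members, none is used. The ratio of Foxc1 to Foxc2 was compared by an exact permutation test in SciPy. Limits of detection cover counting error only, since reads carry no molecular identifiers, whereas standard errors, 95% intervals and p-values take in the spread between these libraries. The tests were checked on simulated counts. For edgeR these were independent libraries with a spread common to all genes, without the close pairs and outlying libraries of the data. The check therefore does not cover those features.

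All 39 members are described, with the genes that overlap or neighbour them. Of 6 lists of linked genes, those called and otherwise the 3 with the highest mean CPM are named, and 1 result of the hedgehog list is not reported here. Of 14 marker lists the summed CPM is given where a member is known from those cells. The members and lists were chosen with earlier results of these data known. Alternatives were other scaling, filters, limits, the second tool and pipeline, and leaving out libraries. Coordinates are those of the deposited table, and coding sequence was read from a GENCODE release on the same build. Protein sequences were not used here.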

Additional observations from a re-analysis of the deposited data

How the results depend on the processing

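The call of members depended on the tool and on mutant E433. Against 0 lower and 0 higher by edgeR, DESeq2's Wald test called 2 and 1, edgeR without E434 and E433 called 3 and 2, and an unadjusted p under 0.05 with no fold limit gave 7 and 2. Leaving out each library in turn gave 0 to 3 lower and 0 to 1 higher, with calls only when E433 was left out (Foxc1, Foxc2 and Foxp2 lower, Foxl1 higher). The share of all genes called was not taken with single libraries left out, so these calls have no background. Without E434 and E433 that share was 2.59% lower and 5.66% higher. Log2 fold changes were -2.33 (DESeq2) and -2.74 (without E434 and E433) for Foxc1, and -1.99 and -1.91 for Foxc2, all past the limit, and with single libraries left out they ran from -2.99 to -2.09 and from -2.26 to -1.63. Members with all mutants below all controls numbered 15 without E434 and E433 and 8 to 14 with single libraries left out, and members above them 7 and 1 to 4. Groups of fewer libraries lie apart more readily. The share over all genes was not taken for these smaller sets, so these counts have no background and are not read as a family result. Expressed members numbered 16, against 23 at a limit of 0.5 and 21 by TPM, and 16 to 17 with libraries left out. The Foxc1 to Foxc2 difference of -0.53 ranged from -0.87 to -0.33.

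Direction held under every alternative for 20 of 31 members. Foxs1 reversed to 0.10 without E434 and E433. With single libraries left out the log2 fold change ran from -3.80 to 0.76 for Foxa2, -3.49 to 1.41 for Foxa3, -0.06 to 0.32 for Foxd3, -5.02 to 0.07 for Foxd4, -0.47 to 0.24 for Foxh1, -0.21 to 0.08 for Foxk1, -0.13 to 0.00 for Foxm1, -0.01 to 0.10 for Foxn3, -0.01 to 0.08 for Foxo3 and -0.39 to 0.36 for Foxp3. The cause of these shifts was not tested. No paired analysis was possible because the embryo numbers differ between groups and the labels give no shared litter or batch.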
